A study of Mus musculus with 2 samples.

Results

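Kera-low fibroblasts were the cells of the mouse corneal and limbal rim that carried the fibroblast proteoglycan decorin (Dcn) but little keratocan (Kera), the proteoglycan of corneal keratocytes. They were selected on the measured levels of 4 genes, as UMI counts per 1000000 UMIs of the same barcode (CPM): Dcn of at least 5000, Kera under 1000, Chil1, a secreted chitinase-like protein, under 1500, and Krt12, a keratin of corneal epithelium, under 5000. The rule found 448 of 7668 barcodes, with 312 of 5155 in the library of a Becn1 heterozygote and 136 of 2513 in the library of a wild-type littermate. Both animals were C57BL/6 females of 28 days, and the labels give as their difference the Becn1 (Beclin 1) genotype, +/- in the heterozygote and wild type in the littermate. Lens, retina, iris and trabecular meshwork had been taken off the anterior segment and most conjunctiva trimmed away before collagenase and trypsin digestion and droplet 3′ sequencing by the 10x Genomics protocol. With 1 animal and 1 library per genotype, genotype, animal and library cannot be told apart and no test between genotypes was possible, so intervals in brackets are exact 95% intervals that cover counting error only.

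Keratocytes are flat mesenchymal cells between the collagen lamellae of the transparent corneal stroma, and they keep fibril spacing narrow with the keratan sulphate proteoglycans keratocan and lumican. At the limbus the cornea meets sclera, conjunctival connective tissue and the limbal vessels, whose fibroblasts build thicker fibrils of irregular spacing and make other proteoglycans, elastic fibres, proteases and signalling molecules. Limbal stroma also lies beneath the epithelial stem cells of the cornea. Beclin 1 belongs to a phosphatidylinositol kinase complex needed early in autophagy.

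All cells past the Dcn and Krt12 limits are called stromal here, and beside the Kera-low cells they included 1356 Kera-high cells (944 heterozygote, 412 wild-type) and 97 Chil1-high cells (86 heterozygote, 11 wild-type). Kera-low cells were shallower than Kera-high cells, with a median of 6653.5 against 8549.5 UMIs in the heterozygote library and 9528 against 12465 UMIs in the wild-type library. The median share of mitochondrial UMIs in Kera-low cells was 1.94% in the heterozygote and 2.02% in the wild type. The smallest barcode held 5430 UMIs in the heterozygote library and 8089 in the wild-type library, so the lower limits in UMIs differed. The median over all barcodes was 11571 UMIs in the heterozygote and 16967 in the wild type. A given UMI total therefore need not mean the same RNA content in both libraries. Of 15 barcode sequences found in both libraries, 1 was a Kera-low cell of the heterozygote, 2 were Kera-low cells of the wild type, and 0 were Kera-low in both. Near the limits, the Kera-low cell closest to the Kera limit had 991 CPM in the heterozygote and 869 CPM in the wild type, and the nearest cell beyond it had 1038 and 1031 CPM in those libraries. Within 20% of that limit, 14 cells lay inside and 16 outside in the heterozygote library, against 2 inside and 3 outside in the wild-type library. For Dcn the nearest values inside were 5393 CPM in the heterozygote and 5591 CPM in the wild type, and those outside were 4845 and 4832 CPM in those libraries. In the heterozygote and wild-type libraries they were 1479 and 1226 CPM inside and 1581 and 1743 CPM outside for Chil1, and 4389 and 3293 CPM inside and 5104 and 6732 CPM outside for Krt12.

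The label of limbal or scleral fibroblasts was set against marker genes of 15 cell types. All 6 markers given for the cells, Dcn, Mmp3, Penk, Sfrp2, Igfbp6 and Fmod, were above 20 CPM in Kera-low cells of both libraries. In Kera-high cells of both libraries 5 of the 6, all but Penk, were above that level too. Dcn was set by the rule and the others were given with the label, so their presence does not check it. Markers of tendon and sclera (Tnmd, Scx, Mkx, Fmod, Thbs4, Comp, Cilp and Chad) summed to 2342 CPM in Kera-low and 1184 CPM in Kera-high cells of the heterozygote, and to 3144 and 1487 CPM in those classes of the wild type. Of these sums Fmod, already a given marker, held 1822 CPM in Kera-low and 531 CPM in Kera-high cells of the heterozygote. In the wild type it held 2378 and 648 CPM in those classes. Without Fmod the list summed to less in Kera-low than in Kera-high cells of both libraries. Chad and Comp within it were higher in Kera-low cells. Markers of adventitial fibroblasts, the Pi16 and Clec3b bearing cells that surround vessels in other mouse tissues, summed to 2034 CPM in Kera-low and 292 CPM in Kera-high cells of the heterozygote, and to 4289 and 336 CPM in those classes of the wild type. Keratocyte markers, among them Kera, whose level the rule set, summed to 5017 CPM in Kera-low and 14050 CPM in Kera-high cells of the heterozygote, and to 3986 and 14510 CPM in those classes of the wild type. Leukocyte markers summed to 336 CPM in heterozygote and 270 CPM in wild-type Kera-low cells, with 62.4% and 84.3% of those UMIs in 3 cells of each library. The 5 vascular endothelial, 3 lymphatic endothelial, 5 melanocyte, 5 mast cell and 6 cycling markers were all below 20 CPM in Kera-low cells, with the endothelial adhesion gene Cdh5 at 0 in the wild type and Emcn at 0 in both libraries. Trabecular or ciliary markers, among them Chil1, a gene of the rule, summed to 6557 CPM in Kera-low and 5119 CPM in Kera-high cells of the heterozygote, and to 5899 and 3923 CPM in those classes of the wild type. Corneal endothelial markers summed to 618 CPM in Kera-low and 193 CPM in Kera-high cells of the heterozygote, and to 350 and 209 CPM in those classes of the wild type. Pericyte or smooth muscle markers summed to 158 CPM in Kera-low and 72.8 CPM in Kera-high cells of the heterozygote, and to 206 and 90.7 CPM in those classes of the wild type, with Myh11 at 0 in Kera-low cells of both libraries. Schwann cell markers summed to 75.7 CPM in Kera-low cells of the heterozygote, with 91.8% of the UMIs in 3 cells, and to 4.47 CPM in those of the wild type, with Cdh19 at 0 in both libraries. The part of these other cell types in the results was not tested. The label covered several kinds of cell, described further on, and no marker in the lists tells limbus from sclera. Krt12 had UMIs in every Kera-low cell. Its level was 1230 CPM in Kera-low and 954 CPM in Kera-high cells of the heterozygote, and 791 and 679 CPM in those classes of the wild type, against 23557 and 24362 CPM in corneal epithelial cells of the heterozygote and wild-type libraries. Its part in the results was not tested.

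The markers were high in the sum of the Kera-low cells and uneven among them. Mmp3 encodes stromelysin 1, a metalloproteinase that degrades proteoglycans and fibronectin. It stood at 2866 CPM in Kera-low and 34.7 CPM in Kera-high cells of the heterozygote, and at 2794 and 89.2 CPM in those classes of the wild type. Its per-cell level had a median of 208 CPM and a maximum of 42360 CPM in the heterozygote, against a median of 519 and a maximum of 36690 CPM in the wild type, so the summed level came from some of the cells. Penk, the precursor of the enkephalin opioid peptides, had 572 CPM in Kera-low and 7.52 CPM in Kera-high cells of the heterozygote, and 837 and 4.84 CPM in those classes of the wild type. Igfbp6, a secreted protein that binds insulin-like growth factor 2, had 1064 CPM in Kera-low and 35.5 CPM in Kera-high cells of the heterozygote, and 1385 and 82.2 CPM in those classes of the wild type. Sfrp2, a secreted Wnt modulator, had 342 CPM in Kera-low and 23.3 CPM in Kera-high cells of the heterozygote, and 487 and 38.9 CPM in those classes of the wild type. Fmod, or fibromodulin, a proteoglycan that limits collagen fibril thickness in tendon and sclera, had the smallest ratio after Dcn, with 1822 CPM in Kera-low and 531 CPM in Kera-high cells of the heterozygote, and 2378 and 648 CPM in those classes of the wild type. The markers do not set Kera-low cells apart from the 86 heterozygote and 11 wild-type Chil1-high cells, which held Mmp3 at 1028 and 902 CPM, Penk at 438 and 2032 CPM, Sfrp2 at 177 and 659 CPM, Igfbp6 at 741 and 1295 CPM and Fmod at 2385 and 3076 CPM in the heterozygote and wild-type libraries. Because the classes were cut on Kera in these same cells, these contrasts describe the class and carry no test.

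**Figure D1:**
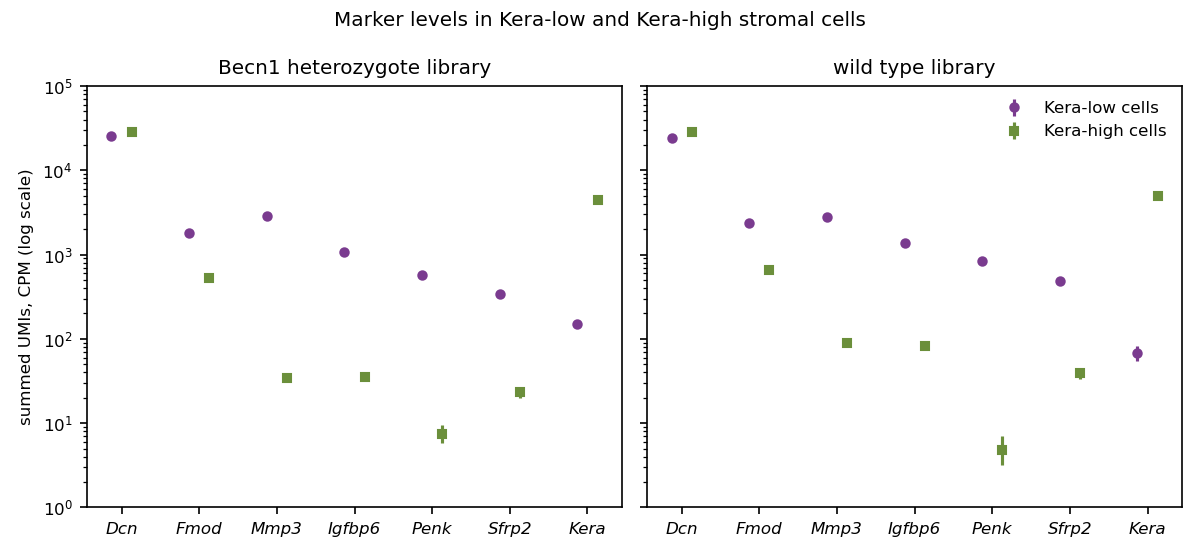
Summed level in CPM on a log scale of the 6 marker genes and Kera, in Kera-low cells (circles) and Kera-high cells (squares) of the Becn1 heterozygote library (left panel) and the wild-type library (right panel), with exact 95% Poisson intervals. Mmp3, Igfbp6, Penk, Sfrp2 and Fmod are higher in Kera-low cells in both panels, Dcn is nearly level, and Kera, which the rule used, is lower.

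At a common depth of 5000 UMIs per cell, Mmp3 was detected in 55.8% (50.1 to 61.4) of Kera-low and 5.61% of Kera-high cells of the heterozygote, and in 64.7% (56.0 to 72.7) and 5.34% of those classes of the wild type. Without thinning the shares in Kera-low cells were 57.7% in the heterozygote and 68.4% in the wild type. In corneal epithelial cells the thinned shares of Mmp3 were 5.35% in the heterozygote and 3.94% in the wild type, and those of Kera, a stromal gene, were 4.66% and 4.61%, so an Mmp3 share of a few percent, as in Kera-high cells, is not read as expression. Penk was detected at that depth in 40.4% of Kera-low and 2.33% of Kera-high cells of the heterozygote, in 45.6% and 1.21% of those classes of the wild type, and in 0.535% and 0.243% of epithelial cells of the heterozygote and the wild type. The median depth of the epithelial cells was 14057 UMIs in the heterozygote and 19589 UMIs in the wild type. Only some of the cells carried each marker at a high level. Counting cells with at least 1000 CPM, a level chosen after the values were seen, 117 heterozygote and 63 wild-type Kera-low cells were high for Mmp3, 58 and 29 for Penk, 36 and 21 for Sfrp2, 100 and 62 for Igfbp6, and 213 and 87 for Fmod. Cells high for both Mmp3 and Penk numbered 42 in the heterozygote and 16 in the wild type. Pi16, a peptidase inhibitor of adventitial fibroblasts, was high in 31 cells of each library, and of these 1 heterozygote and 2 wild-type cells were also high for Fmod, and 0 in either library for Penk. In 31 heterozygote and 2 wild-type cells none of Mmp3, Penk, Sfrp2, Igfbp6, Fmod and Pi16 reached that level.

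The promoter of Mmp3 is shown because the gene marks the class, and that of Kera because its low level chose the cells. Both come from RefSeq on GRCm38.p6, the assembly of mm10, and run from 250 bases before to 50 bases after the annotated start on the plus strand, at chr9:7445572-7445871 for Mmp3 and chr10:97606955-97607254 for Kera. Capitals mark matches to the AP-1 motif TGANTCA, bound by Fos and Jun family proteins, and to TATAAA, searched on both strands.
Mmp3: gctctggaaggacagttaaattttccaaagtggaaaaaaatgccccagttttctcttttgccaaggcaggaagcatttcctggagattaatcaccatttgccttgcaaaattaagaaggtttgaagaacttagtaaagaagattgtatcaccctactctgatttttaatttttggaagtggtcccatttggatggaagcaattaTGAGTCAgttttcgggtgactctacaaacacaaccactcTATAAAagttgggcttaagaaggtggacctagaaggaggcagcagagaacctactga
Kera: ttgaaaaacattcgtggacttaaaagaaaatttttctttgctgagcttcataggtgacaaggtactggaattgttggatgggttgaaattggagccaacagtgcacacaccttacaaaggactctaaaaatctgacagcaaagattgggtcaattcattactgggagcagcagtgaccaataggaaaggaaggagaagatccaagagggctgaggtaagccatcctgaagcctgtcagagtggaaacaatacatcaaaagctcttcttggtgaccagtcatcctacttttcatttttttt
The Mmp3 window held an AP-1 match that starts 46 bases before the annotated start and is read on both strands at the same bases, and a TATAAA match that starts 7 bases before it. The Kera window held neither. It starts at 97606955, after the start of the gene in the GENCODE M21 annotation, 97606879, so bases before that start were not searched. Of 32851 mouse promoter windows of this length, 7.81% held the AP-1 motif and 13.6% held TATAAA. Among the 15 genes highest in Kera-low cells, described next, 9 had a promoter in the table and 1 of these, Mmp3, held the AP-1 motif, while 4 held TATAAA. Among the 15 lowest, 10 had one, of which 0 held the AP-1 motif and 2 held TATAAA. Fos itself was at 3324 CPM in Kera-low and 1964 CPM in Kera-high cells of the heterozygote, and at 4425 and 2559 CPM in those classes of the wild type. Among the groups of Kera-low cells described below, subgroup 5 had Mmp3 at 8105 CPM in the heterozygote and 8126 CPM in the wild type with Fos at 6807 and 5882 CPM. Subgroup 2 had Mmp3 at 5161 and 5977 CPM with Fos at 115 and 125 CPM, and subgroup 7 had Mmp3 at 176 and 22.3 CPM with Fos at 5721 and 11950 CPM in those libraries.

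Over all genes, Kera-low cells set against Kera-high cells were led by such genes as Wisp2, Clec3b and Eln on the high side and Fgf21, Col9a1 and Cd40 on the low side. Among 4734 genes whose mean over both classes and libraries reached 20 CPM, 298 were at least 2-fold higher in Kera-low cells in both libraries (6.29% of the genes) and 120 at least 2-fold lower (2.53%). The median log2 ratio of all genes was 0.12 in the heterozygote and 0.07 in the wild type, and with edgeR's TMM scaling these medians moved to -0.10 and -0.11, which gave 243 genes higher and 182 lower. The list medians below are to be read against these values. Without the cells of subgroups 1 and 2 below, those highest in the keratocyte gene Angptl7, 226 genes were lower.

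The 15 genes highest in Kera-low cells included several of the matrix. Eln, the elastin of elastic fibres, had 250 CPM in Kera-low and 2.94 CPM in Kera-high cells of the heterozygote, and 1335 and 2.61 CPM in those classes of the wild type. The log2 ratios were 6.38 (5.83 to 7.05) in the heterozygote and 8.95 (8.25 to 9.87) in the wild type. Fbln1, a fibulin of elastic fibres, had ratios of 5.11 and 4.80 in the heterozygote and wild-type libraries, the tenascin Tnc 4.22 and 4.56, and the collagen VIII chain Col8a1 4.21 and 4.86. Clec3b, the plasminogen-binding protein tetranectin, had 325 CPM in Kera-low and 2.82 CPM in Kera-high cells of the heterozygote, and 920 and 7.64 CPM in those classes of the wild type. Its log2 ratio was 6.82 in the heterozygote and 6.90 in the wild type, nearly the same in both. The matricellular protein gene Wisp2 had log2 ratios of 6.82 and 6.51 in those libraries, Pi16 5.79 and 5.61, the surface glycoprotein gene Thy1 5.56 and 6.55, and the pentraxin Ptx3, a soluble pattern recognition protein, 7.08 and 4.73. Ly6c1, a surface antigen gene with a near-identical neighbour, Ly6c2, between which counts can be split, had 4.86 and 4.74. Car3, a carbonic anhydrase gene also listed here as a marker of corneal endothelium, had 4.43 and 4.10, with 71.2% of its UMIs in the cells of subgroup 1.

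Kera and the other genes of the rule aside, the 15 genes lowest in Kera-low cells were led by Fgf21, an endocrine fibroblast growth factor. It had 18.3 CPM in Kera-low and 424 CPM in Kera-high cells of the heterozygote, and 6.70 and 564 CPM in those classes of the wild type. A2m, the broad protease inhibitor alpha-2-macroglobulin, had 718 CPM in Kera-low and 3779 CPM in Kera-high cells of the heterozygote, and 152 and 3894 CPM in those classes of the wild type. The gap was thus larger in the wild-type library, with log2 ratios of -2.39 (-2.47 to -2.33) in the heterozygote and -4.68 (-4.89 to -4.48) in the wild type. Enzymes and chains of collagen assembly were also among them, with the lysyl hydroxylase Plod1 at -2.39 and -2.74 in the heterozygote and wild-type libraries, the collagen IX chain Col9a1 at -2.90 and -5.21, and the collagen V chain Col5a1, which nucleates fibrils, at -2.02 and -2.20. Others were Sparcl1, a secreted relative of osteonectin, at -2.43 and -3.20, the costimulatory receptor Cd40 at -2.83 and -5.26, the Notch ligand-like Dlk1 at -2.13 and -3.85, and Spon1, or F-spondin, at -2.11 and -3.94. Ass1, an enzyme of arginine synthesis, Psat1, an enzyme of serine synthesis, Ttc8, Fjx1, Tmem132c and the potassium channel gene Kcnk1 lay between -1.89 and -2.85 in the heterozygote and between -2.02 and -3.77 in the wild type.

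**Figure D2:**
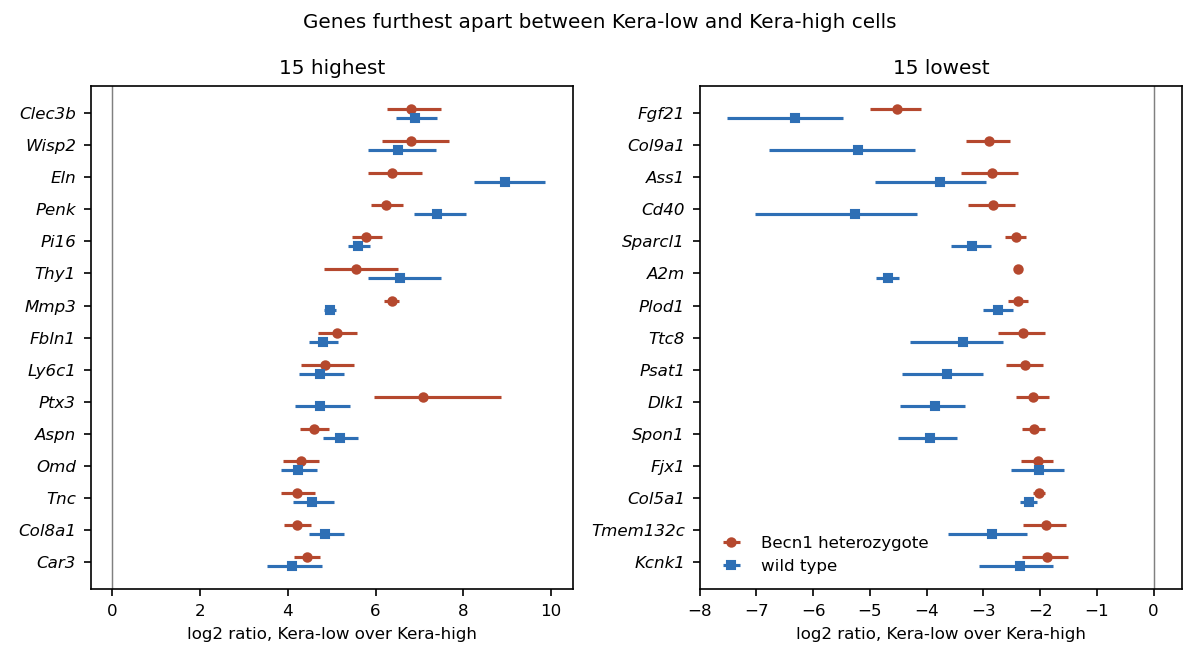
Log2 ratio of Kera-low over Kera-high cells for the 15 genes furthest on the high side (left panel) and the 15 furthest on the low side (right panel), with circles for the Becn1 heterozygote library, squares for the wild-type library and exact 95% intervals for counting error. Eln is further from 0 in the wild type (8.95) than in the heterozygote (6.38), and all 15 low genes lie below -1 in both libraries.

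Small leucine-rich proteoglycans, which bind collagen fibrils and set their diameter, were mostly higher in Kera-low cells, and 9 of the 12 family genes sit in 3 chromosomal clusters of the mouse genome (positions from GENCODE M21 on mm10). Of the family, 11 genes were measured, 7 were at least 2-fold higher in Kera-low cells and 1, Kera, was lower by the rule, with median log2 ratios of 1.78 in the heterozygote and 1.80 in the wild type. On chromosome 10 the cluster holds Dcn (97479609 to 97518143), Lum (97565128 to 97572703), Kera (97606879 to 97613692) and Epyc (97644068 to 97682454), all on the plus strand. Lum, the other keratan sulphate proteoglycan of the cornea, had 3447 CPM in Kera-low and 5365 CPM in Kera-high cells of the heterozygote, and 3241 and 5389 CPM in those classes of the wild type. Its log2 ratio was thus -0.64 in the heterozygote and -0.73 in the wild type, against -4.90 and -6.18 for Kera, whose level the rule set, in those libraries. Epyc, or epiphycan, on the far side of Kera, was higher, with 37.4 CPM in Kera-low and 0.94 CPM in Kera-high cells of the heterozygote, and 55.1 and 7.64 CPM in those classes of the wild type. On chromosome 13, asporin (Aspn, 49544443 to 49567565), osteomodulin (Omd, 49582462 to 49592822) and osteoglycin (Ogn, 49608046 to 49624501) were all higher, with log2 ratios of 4.59, 4.29 and 1.24 in the heterozygote and 5.18, 4.23 and 1.29 in the wild type. On chromosome 1, Fmod (134037254 to 134048277) and Prelp (133910304 to 133921414), a proteoglycan that anchors basement membranes, had ratios of 1.78 and 1.92 in the heterozygote and 1.88 and 1.80 in the wild type. Bgn, or biglycan, had -0.34 in the heterozygote and -0.28 in the wild type.

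Fibrillar collagens were mostly lower, with 1 of 7 genes at least 2-fold higher and 3 lower, and medians of -0.81 in the heterozygote and -0.64 in the wild type. The higher one was Col3a1, the collagen of compliant connective tissue, with 1283 CPM in Kera-low and 221 CPM in Kera-high cells of the heterozygote, and 3435 and 232 CPM in those classes of the wild type. Over both libraries, 71.6% of the Col3a1 UMIs of Kera-low cells lay in subgroup 4, described below, and 14.25% in subgroup 7. In subgroups 1, 2 and 3 Col3a1 was at 181, 152 and 283 CPM. The chains that restrain fibril growth were the lower ones, Col5a1, Col5a2 (-1.29 and -1.44 in the heterozygote and wild-type libraries) and Col11a1 (-1.36 and -1.54). Col1a1, the main chain of collagen I, was 14252 CPM in Kera-low and 21716 CPM in Kera-high cells of the heterozygote, and 17474 and 24102 CPM in those classes of the wild type. Among other collagens, 2 of 10 were higher, Col8a1 and Col14a1, and 3 were lower, the collagen VI genes Col6a1, Col6a2 and Col6a3 at -1.28 to -1.53 in the heterozygote and -1.35 to -1.87 in the wild type. Matrix glycoproteins and elastic fibre genes had 9 of 26 higher and 2 lower, with medians of 0.32 in the heterozygote, which became -0.04 under TMM scaling, and 0.64 in the wild type. Beside Eln and Fbln1, fibulin 3 (Efemp1) had log2 ratios of 3.23 and 4.83 in the heterozygote and wild-type libraries, and tenascin X (Tnxb) 3.34 and 3.57. Periostin (Postn) had 190 CPM in Kera-low and 23.6 CPM in Kera-high cells of the heterozygote, and 546 and 23.7 CPM in those classes of the wild type. Over both libraries, subgroup 4 held 90.6% of the Efemp1 and 82.3% of the Postn UMIs of Kera-low cells.

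Of 11 metalloproteinases and inhibitors measured, 6 were higher and 0 lower, and all 11 had ratios above 0 in both libraries, with medians of 1.19 in the heterozygote and 1.79 in the wild type. Beside Mmp3 these were the inhibitors Timp3, with log2 ratios of 3.39 in the heterozygote and 3.31 in the wild type, and Timp1, with 2.43 and 2.60. The aggrecan-cleaving Adamts5 had 3.06 and 3.80, Adamts1 1.73 and 2.02, and Mmp23 1.19 and 1.42 in those libraries. Cytokines and chemokines had 9 of 13 higher and 0 lower, with medians of 2.26 in the heterozygote and 2.77 in the wild type. Cxcl12, the niche chemokine that binds Cxcr4, had 63.2 CPM in Kera-low and 3.64 CPM in Kera-high cells of the heterozygote, and 73.0 and 8.76 CPM in those classes of the wild type. Il6 had log2 ratios of 2.57 in the heterozygote and 3.88 in the wild type, Il33, a nuclear alarmin, 3.64 and 4.81, and the chemokines Cxcl14 and Cxcl10 4.37 and 3.87 in the heterozygote and 3.65 and 5.05 in the wild type. In subgroup 5, described below, Cxcl10 was detected in 12 of 60 cells, with 64.8% of its UMIs there in 3 cells. Complement genes had 3 of 6 higher, among them the chaperone clusterin (Clu) at 2.96 and 3.82 and the C1 inhibitor Serping1 at 1.33 and 1.07 in the heterozygote and wild-type libraries.

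Among secreted regulators, 6 of 12 genes of the insulin-like growth factor pathway were higher and 1, Dlk1, was lower. The ligands Igf1 and Igf2 had log2 ratios of 2.55 and 4.26 in the heterozygote and 4.06 and 4.23 in the wild type, and the binding proteins Igfbp7 and Igfbp5 had 2.82 and 1.71 in the heterozygote and 2.56 and 2.32 in the wild type. Of 9 Wnt genes measured, 4 were higher, the ligand Wnt2 (5.55 in the heterozygote and 7.22 in the wild type) and the secreted modulators Sfrp4, Sfrp2 and Dkk3, and 1 was lower, the ligand Wnt11 (-1.05 and -1.37). Over both libraries, Wnt2 was at 258 CPM in subgroup 4, described below, and at 1.57 CPM in the other Kera-low cells. In the TGF-beta and BMP pathway 6 of 16 were higher, among them the activin antagonist follistatin (Fst, 3.65 and 4.05), the receptors Tgfbr2 and Tgfbr3, the ligand Tgfb3 and its target Ctgf, and 0 were lower. Of 9 retinoid genes, Cyp26b1, which breaks down retinoic acid, had ratios of 3.60 and 4.11 in the heterozygote and wild-type libraries, the chemoattractant gene Rarres2 2.21 and 2.69, and Crabp1, which carries retinoic acid, -1.24 and -2.44. Of 15 mesenchymal transcription factors measured, 4 were higher, Osr2 (4.41 and 4.97), Ebf1 (3.99 and 4.11), Foxp1 and Zeb2, and 0 were lower.

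Several genes of amino acid and sterol supply were lower in Kera-low cells. Targets of the amino acid stress factor ATF4 had 0 of 16 higher and 5 lower, with medians of -0.39 in the heterozygote and -0.86 in the wild type, and the lower ones were Fgf21, Psat1, the asparagine synthetase Asns, the glutathione-degrading Chac1 and Eif4ebp1. Cholesterol synthesis genes had 0 of 17 higher and 4 lower (Hsd17b7, Sqle, Msmo1 and Stard4), with 15 below 0 in both libraries and medians of -0.70 in the heterozygote and -1.43 in the wild type. Immediate early genes, which tissue digestion is known to induce, had 5 of 31 higher and 0 lower, with medians of 0.62 in the heterozygote and 0.74 in the wild type. Heat shock genes had 1 of 15 past the limit, the small chaperone Hspb8 (5.38 and 5.93 in the heterozygote and wild-type libraries). Of 18 autophagy genes and 24 lysosome genes measured, 0 were past 2-fold in either direction, with list medians between -0.17 and 0.17 over both libraries and both scalings. The 83 ribosomal protein genes and 12 mitochondrially encoded genes also had 0 past 2-fold. Of 13 interferon and antigen presentation genes, 2 were higher (Irf1 and Isg15) and 1 was lower (Bst2, -1.13 and -1.12). Of 9 lipid handling genes, 1 was higher (Pltp) and 2 were lower (Apoe, with -1.36 and -1.68, and Ptgs2). Of 8 neuropeptide and neurotrophin genes, 2 were higher, Penk among them, and Ntrk2, the receptor of brain-derived neurotrophic factor (-1.53 and -2.42), and Sema3c were lower.

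**Figure D3:**
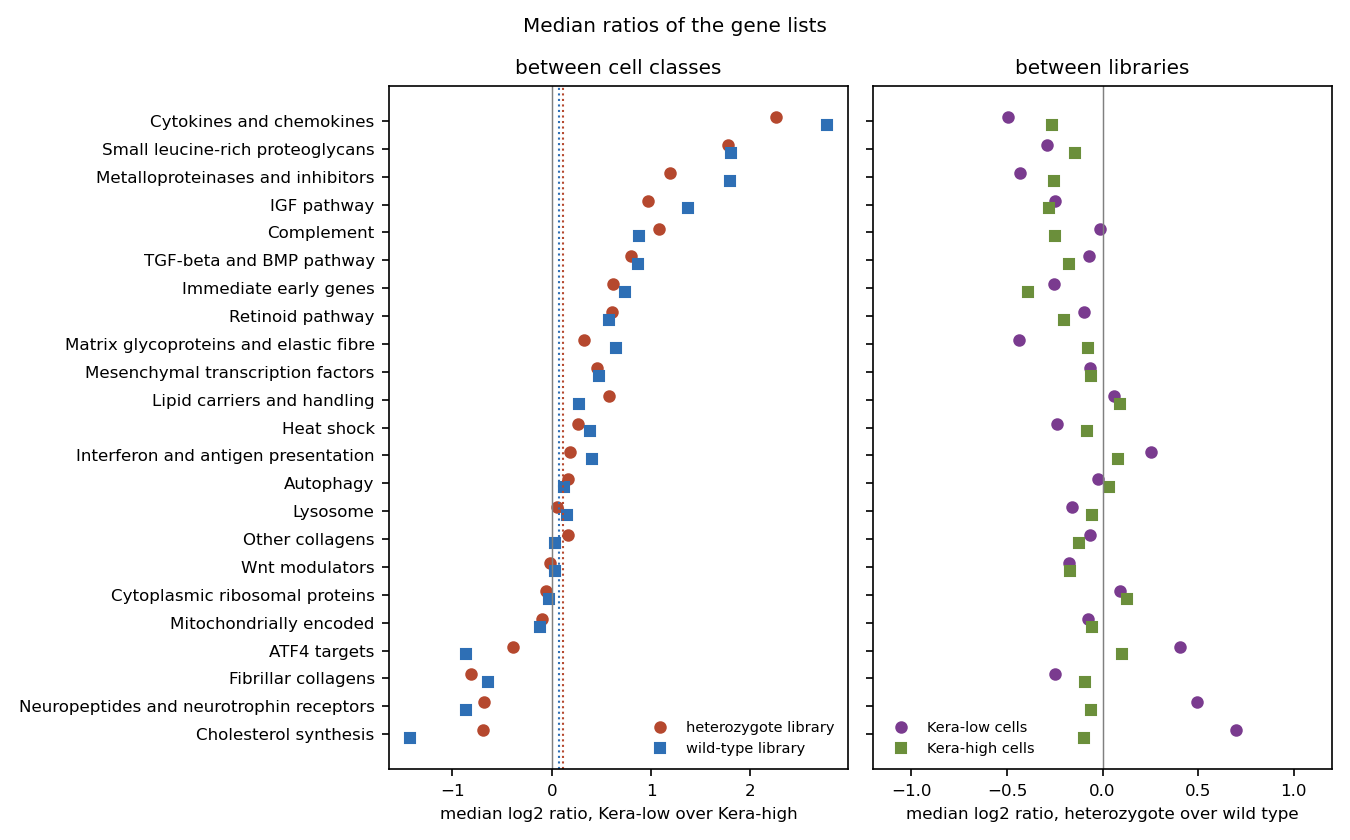
Median log2 ratio of each of 23 gene lists: left, Kera-low over Kera-high cells in the Becn1 heterozygote library (circles) and the wild-type library (squares), with dotted lines at the median of all genes; right, the heterozygote over the wild-type library in Kera-low cells (circles) and Kera-high cells (squares). Cytokines and chemokines (2.26 and 2.77) and small leucine-rich proteoglycans lie highest on the left, and cholesterol synthesis has the highest median on the right in Kera-low cells (0.70).

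Leiden clustering of the 448 Kera-low cells gave 7 subgroups. Immediate early and heat shock genes were kept out of the clustering. The genes that lead a subgroup built it, so they describe it and are no result, and the sizes are given as counts only. Subgroup 4 (35 heterozygote and 34 wild-type cells) was led by Ifi205, Wnt2, Pi16, Eln, Efemp1, Gsta1, Clec3b and Efhd1. All 8 adventitial fibroblast markers were above 20 CPM in it in the heterozygote, summing to 15340 CPM, against 14220 CPM in the wild type. Fmod, by contrast, was at 17.8 CPM in heterozygote and 2.90 CPM in wild-type cells of subgroup 4, and Dcn was at 11730 and 10740 CPM, less than in subgroups 1, 2, 3, 5 and 6. This subgroup held 93.3% of the Pi16, 92.7% of the Eln, 89.5% of the Clec3b and 85.5% of the Ly6c1 UMIs of all Kera-low cells, and 7 of the 15 highest genes of the class reached their highest level there. Subgroup 7 (17 heterozygote and 9 wild-type cells) also had little Fmod, at 32.0 CPM in the heterozygote and 22.3 CPM in the wild type. Its leading genes included Meox2, Matn2, Mbp, Sfrp4, Pou3f1 and Crabp2. It had the most Igfbp6, with 6691 CPM in the heterozygote and 5010 CPM in the wild type, and carried Myoc, the myocilin of outflow tissue, at 569 and 646 CPM. Its Schwann cell genes came from few cells, with Mbp detected in 2 cells.

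Subgroup 6 (23 heterozygote and 21 wild-type cells) was led by Krt7, Chad, Prss22, Plekhs1, Prss27, Gpx3, Comp and AA467197. It was the subgroup highest in tendon and scleral markers, which summed to 7240 CPM in the heterozygote and 10190 CPM in the wild type, with the tenomodulin gene Tnmd at 977 and 1353 CPM and Fmod at 5215 and 6786 CPM in those libraries. It also had the most Sfrp2, with 2170 CPM in heterozygote and 1891 CPM in wild-type cells. The epithelial genes Krt7, Prss22, Plekhs1, Prss27 and AA467197 among its leading genes sat in few cells, with 83.8% to 94.6% of their UMIs in the subgroup held by 3 cells. Subgroup 3 (51 heterozygote and 18 wild-type cells) was led by Penk, Emb, Spp1, Col8a1, Prss12, Acta2, Nkd2 and F3, and held 58.4% of all Penk UMIs, with 2354 CPM in the heterozygote and 3705 CPM in the wild type. Trabecular or ciliary markers summed to 11450 CPM in its heterozygote and 14240 CPM in its wild-type cells. Subgroup 5 (32 heterozygote and 28 wild-type cells) was led by Cxcl5, Tnn, Stc1, Cxcl10, Ikzf4, Gcc1, Cyp26b1 and Aldh1a2, a pair of retinoic acid enzymes closing the list. Mmp3 was highest there, at 8105 CPM in the heterozygote and 8126 CPM in the wild type, which differed by less than counting error.

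Subgroup 1 held 27.2% of the heterozygote and 11.0% of the wild-type Kera-low cells, and subgroup 2 held 22.1% and 8.09% of those libraries. Subgroup 1 (85 heterozygote and 15 wild-type cells) was led by the macrophage and antigen presentation genes Saa3, C1qb, Ccl4, Cd74, H2-Ab1, H2-Aa, H2-Eb1 and Cd14. These stood in few cells, with Cd74 detected in 7 of 100 cells and 94.5% of its UMIs in 3. The subgroup also held Angptl7, a secreted factor of keratocytes, at 1958 CPM in heterozygote and 1608 CPM in wild-type cells. It had little Penk, Sfrp2 and Igfbp6, at 39.4, 2.39 and 105 CPM in heterozygote cells and 120, 11.9 and 442 CPM in wild-type cells. The other markers were present, with Dcn at 25650 and 27190 CPM, Fmod at 1423 and 1841 CPM and Mmp3 at 618 and 741 CPM in heterozygote and wild-type cells. Corneal endothelial markers summed to 1155 CPM in heterozygote and 514 CPM in wild-type cells of subgroup 1, with 52.8% and 54.6% of those UMIs in 3 cells of each library. Subgroup 2 (69 heterozygote and 11 wild-type cells) was led by Slc7a11, Sprr1a, Chac1, Sesn2, Krt15, Foxc1, Psph and Cldn7, of which Slc7a11, Chac1, Sesn2 and Psph are known targets of ATF4. Few cells held much of some of these, with 85.1% of the Sprr1a, 70.8% of the Krt15 and 45.3% of the Cldn7 UMIs there in 3 cells. Subgroup 2 had Angptl7 at 1844 CPM in heterozygote and 2114 CPM in wild-type cells and, unlike subgroup 1, much Mmp3. The summed levels of Kera were 275 and 132 CPM in heterozygote and wild-type cells of subgroup 1, within the rule's limit.

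**Figure D4:**
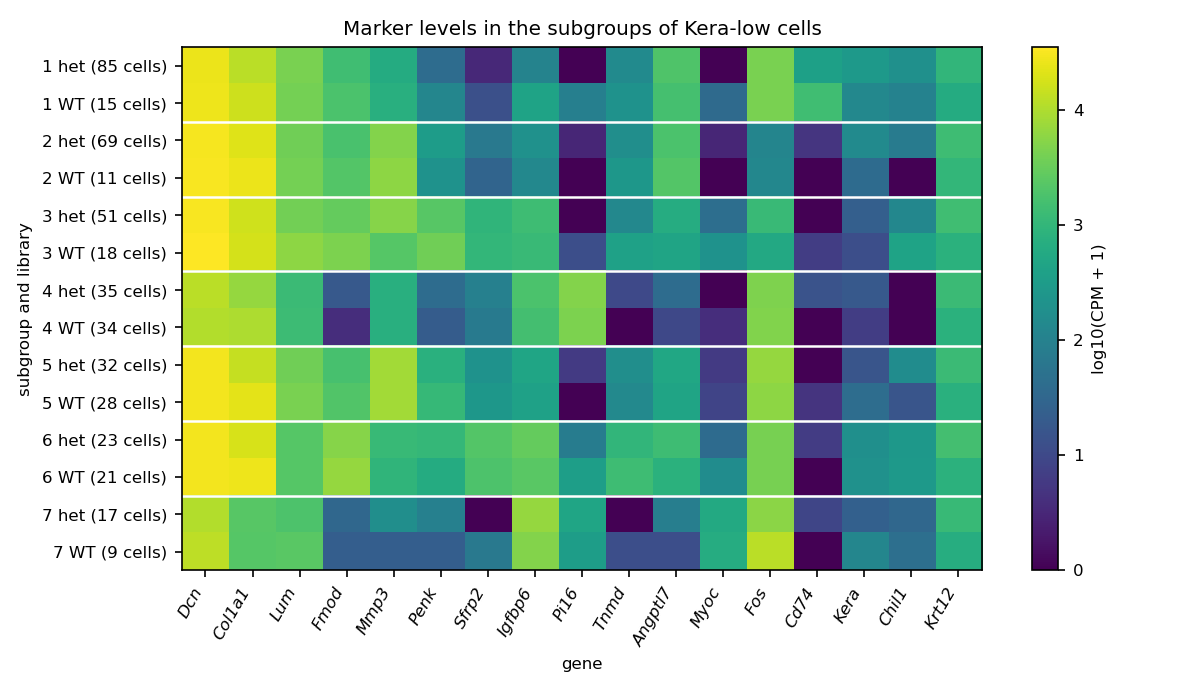
Levels of 17 genes as log10(CPM + 1) in the 7 subgroups of Kera-low cells, with the Becn1 heterozygote row (het) above the wild-type row (WT) of each subgroup and the number of cells in brackets. Fmod is lowest in subgroups 4 and 7. Pi16 is highest in subgroup 4, Penk in subgroup 3, Mmp3 in subgroups 2, 3 and 5, and Angptl7 in subgroups 1 and 2.

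Kera-low cells made up 23.2% (21.01 to 25.6) of the stromal cells in the heterozygote library, 312 of 1342, and 24.3% (20.8 to 28.1) in the wild-type library, 136 of 559, so the intervals overlapped. Of all barcodes they were 6.05% (5.42 to 6.74) in the heterozygote and 5.41% (4.56 to 6.37) in the wild type. That closeness depended on shallow barcodes. With only barcodes of at least 8089 UMIs, the smallest in the wild-type library, the share was 12.2% in the heterozygote, 86 of 703, and 24.3% in the wild type. That minimum left out barcodes of the heterozygote only, the library with fewer UMIs per barcode. Of those 86 heterozygote cells 51 were in subgroup 1 and 2 in subgroup 4, while 15 and 34 of the 136 wild-type cells were in those subgroups. With subgroups 1 and 2 taken out of the Kera-low cells but kept among the stromal cells, 158 of 1342 heterozygote and 110 of 559 wild-type cells remained. These were 11.8% in the heterozygote and 19.7% in the wild type. With Krt12 under 1000 CPM the share was 16.0% in the heterozygote, 116 of 726 stromal cells, beside 107 of 476 in the wild type.

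Becn1 itself did not differ beyond counting error in Kera-low cells. It had 31.2 CPM (24.5 to 39.1) from 75 UMIs in the heterozygote and 32.0 CPM (23.2 to 43.1) from 43 UMIs in the wild type, a log2 ratio of -0.05 (-0.60 to 0.54). In Kera-high cells the log2 ratio was 0.23 (-0.05 to 0.52). A 3′ count does not show which allele a transcript came from, and the altered stretch of the allele is not given in the sources used here, so the value does not check the genotype. Of 19 autophagy genes measured in Kera-low cells, 1, Atg12, was at least 1.5-fold higher in the heterozygote and 0 were lower, and the median log2 ratio of the list was -0.02.

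More genes passed the fold limit between libraries in Kera-low than in Kera-high cells, which was not tested. Of 4910 genes, 272 were at least 1.5-fold higher in heterozygote Kera-low cells (5.54%) and 336 at least 1.5-fold lower (6.84%), against 43 (0.956%) and 40 (0.889%) of 4497 genes in Kera-high cells. Kera-high cells were about 3 times as many in each library, so their counting error was smaller. With the common minimum of 8089 UMIs the counts in Kera-low cells were 606 higher and 579 lower. Weighting equally the 6 subgroups with at least 10 cells in each library, all but subgroup 7, gave 216 higher and 222 lower.

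The genes furthest on the low side in the heterozygote had most of their UMIs in subgroup 4, and all but Has1 reached their highest level there. All 12 genes named by the rule had over 50% of their UMIs, 53.2% to 93.3%, in that subgroup, which held 35 of 312 heterozygote and 34 of 136 wild-type cells. Eln was the furthest, with 250 CPM in heterozygote and 1335 CPM in wild-type Kera-low cells and a log2 ratio of -2.42 (-2.55 to -2.28). It was lower within subgroup 4 as well, at 2124 CPM in heterozygote and 5056 CPM in wild-type cells, and with subgroups weighted equally its ratio was -1.10. Pi16 had 511 CPM in heterozygote and 1242 CPM in wild-type Kera-low cells, a log2 ratio of -1.28 (-1.39 to -1.17), but within subgroup 4 it was at 5143 CPM in the heterozygote and 4502 CPM in the wild type, and its equally weighted ratio was 0.08. Clec3b had -1.50 over all Kera-low cells and -0.19 with equal weights, Col3a1 -1.42 and -0.27, Postn -1.52 and -0.28, Efemp1 -1.66 and -0.37, the surface sialomucin Cd34 -1.44 and -0.36, and Thy1 -1.66 and -0.55. For Has1, a hyaluronan synthase, the values were -1.77 and -0.48, and for the small GTPase Rasd1 -1.54 and -0.83. Equal weights left out subgroup 7, where Has1 was highest and had 38.8% of its UMIs. Within that subgroup Has1 had a log2 ratio of -1.415 (-1.75 to -1.09). Gsta1 and Gsta2, glutathione transferases whose sequences are near-identical so that counts can be split between them, had -1.71 and -1.50 over all Kera-low cells and -0.38 and -0.23 with equal weights. Under equal weights only Eln and Rasd1 of these 12 stayed past 1.5-fold.

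Of the 12 genes named as higher in the heterozygote, 10 were higher in corneal epithelial cells of both libraries than in Kera-low cells. They were the proteases Prss27 (log2 ratio 3.15) and Prss22 (2.84), AA467197 (2.77), the peptidoglycan recognition protein Pglyrp1 (2.64), the transferase Gsto1 (2.16), the skin aspartic protease Asprv1 (2.08), the basal keratin Krt15 (1.94), Upk3bl (1.86), Psca (1.67) and Ifitm1 (1.65). Apart from Krt15 they were highest in subgroup 6, where Gsto1 was at 19440 CPM in heterozygote and 707 CPM in wild-type cells. That subgroup held 7.37% of the heterozygote Kera-low cells, so equal weights raise its part in these ratios. In the heterozygote, 3 cells held 80.4% of the Prss22, 76.5% of the AA467197, 68.3% of the Prss27 and 55.5% of the Gsto1 UMIs of Kera-low cells, and 30.8% to 53.5% for the other 6. Their ratios in Kera-high cells were also above 0, from 0.69 for Gsto1 to 1.79 for Pglyrp1. Epithelial markers summed to 3994 CPM in heterozygote and 2424 CPM in wild-type Kera-low cells, with 6 and 5 of 7 above 20 CPM and 0 of 7 at 0, and their part in these differences was not tested. By Scrublet score 20 heterozygote Kera-low cells (6.41%) and 2 wild-type ones (1.47%) were called doublets. Without the called doublets the ratios of Prss27, Prss22 and AA467197 were 1.08, 0.25 and 0.32, those of Pglyrp1 and Krt15 1.28 and 1.17 with Upk3bl between them, and those of Gsto1, Asprv1, Ifitm1 and Psca 0.78, 0.64, 0.59 and 0.43. In cells with Fos of at least 1000 CPM, Prss27, Prss22, AA467197, Asprv1 and Psca had 0.83, 0.02, 0.33, 0.36 and 0.23. With the limit on Dcn at 2500 CPM the ratio of Krt15 turned to -0.77, and those of Pglyrp1, Gsto1 and Ifitm1 were 0.55, 0.80 and 0.49.

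The other genes named as higher, Npy and A2m, stood at 17.6 and 24.4 CPM in epithelial cells of the heterozygote and at 8.44 and 21.3 CPM in those of the wild type. Npy, the precursor of the sympathetic transmitter neuropeptide Y, had 405 CPM in heterozygote and 38.7 CPM in wild-type Kera-low cells, a log2 ratio of 3.37 (2.98 to 3.82). It was detected in 102 of 312 heterozygote and 18 of 136 wild-type cells, and the 3 highest cells held 27.4% of its UMIs in the heterozygote and 51.9% in the wild type. Npy had 816 CPM in heterozygote and 120 CPM in wild-type cells of subgroup 1, with 470 and 163 CPM in those of subgroup 2, 125 and 5.81 CPM in those of subgroup 4, and 74.0 and 7.50 CPM in those of subgroup 5. The order was the other way in subgroup 3, where it had 23.3 CPM in heterozygote and 62.5 CPM in wild-type cells from 8 and 11 UMIs. The ratio with equal weights was 2.11, and it was 0.10 with the limit on Dcn at 2500 CPM, which gave 334 heterozygote and 149 wild-type cells. In Kera-high cells Npy had 76.7 CPM in the heterozygote and 53.3 CPM in the wild type, a log2 ratio of 0.52, so it was higher in Kera-low than in Kera-high cells in the heterozygote (log2 ratio 2.40) and not in the wild type (-0.45). A2m had 718 CPM in heterozygote and 152 CPM in wild-type Kera-low cells, a log2 ratio of 2.24 (2.03 to 2.46), against -0.04 in Kera-high cells. Most of its UMIs lay in subgroups 1 and 2, where it was at 1445 and 824 CPM in the heterozygote and 634 and 471 CPM in the wild type, and its equally weighted ratio was 1.05.

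**Figure D5:**
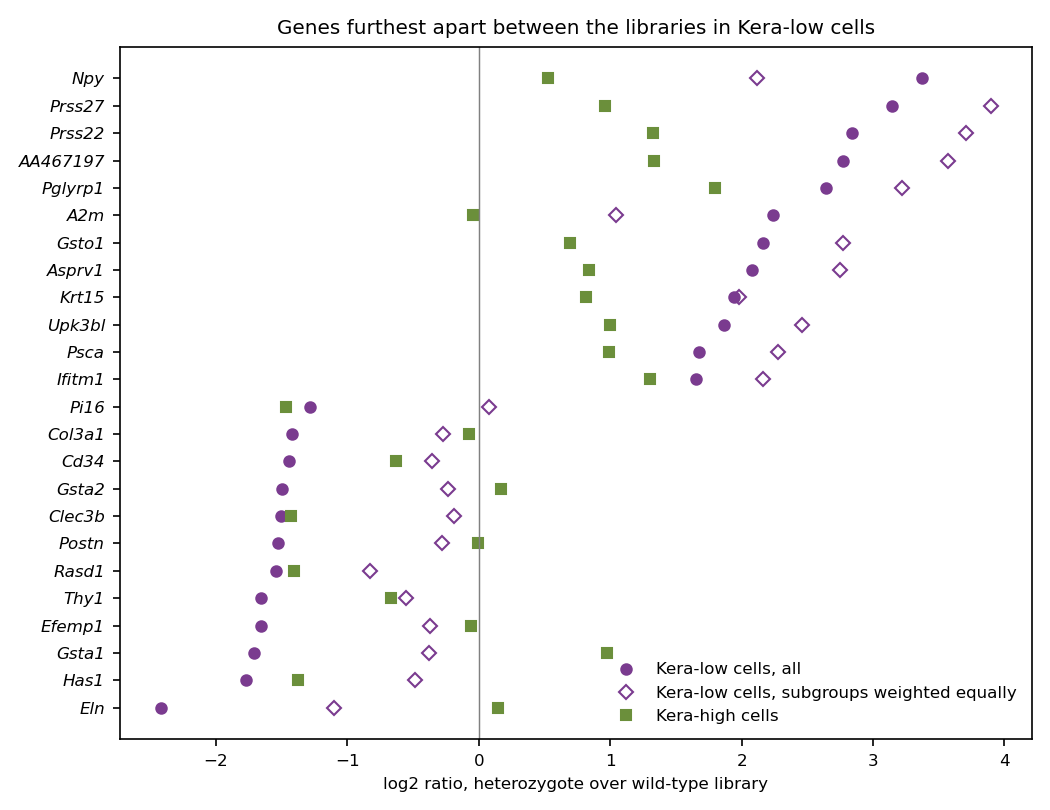
Log2 ratio of the Becn1 heterozygote over the wild-type library for the 24 genes named by the rule, in all Kera-low cells (filled circles), in Kera-low cells with subgroups weighted equally (open diamonds) and in Kera-high cells (squares). With equal weights 11 of the 12 lower genes move to within 1 log2 unit of 0, Pi16 crosses it (0.08) and Eln stays at -1.10. The higher genes other than Npy (2.11) and A2m (1.05) do not move towards 0. Of the 12 higher genes, 9 are highest in subgroup 6, which counts for more in the heterozygote under equal weights.

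Of the markers of the class, Mmp3 was at 2866 CPM in heterozygote and 2794 CPM in wild-type Kera-low cells, a log2 ratio of 0.04 (-0.02 to 0.09), although within subgroup 3 it was at 5302 CPM in the heterozygote and 2233 CPM in the wild type. With the common minimum of 8089 UMIs, which removed 226 of the 312 heterozygote cells, its ratio was -1.48, and those of Penk, Sfrp2, Igfbp6 and Fmod were -1.72, -2.46, -1.02 and -0.62. Over all Kera-low cells Penk had -0.55 (-0.66 to -0.43), Sfrp2 -0.51 (-0.66 to -0.36), Igfbp6 -0.38 (-0.47 to -0.29) and Fmod -0.38 (-0.45 to -0.32). With equal weights Sfrp2 was at 0.08 and Igfbp6 at 0.19, on the other side of 0, and Penk at -0.33 and Fmod at -0.40.

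Read by list, cholesterol synthesis had the highest median between the libraries in Kera-low cells, with 8 of 14 genes at least 1.5-fold higher in heterozygote Kera-low cells, 0 lower, 13 of 14 above 0 and a median log2 ratio of 0.70, against a median of 0.00 over all genes. The median was 0.37 with subgroups weighted equally, and in Kera-high cells it was -0.10 with 0 of 17 past 1.5-fold. Srebf2, the transcription factor that drives the pathway, had 39.5 CPM in heterozygote and 11.2 CPM in wild-type Kera-low cells, a log2 ratio of 1.78 (1.03 to 2.72). The squalene synthase gene Fdft1 had 1.53 (0.94 to 2.22), the farnesyl diphosphate synthase gene Fdps 1.17, the demethylase genes Msmo1 and Cyp51 1.10 and 0.83, and Insig1, a brake on the pathway, 0.94. ATF4 targets had 5 of 14 higher and 0 lower with a median of 0.40, which was 0.22 with equal weights and 0.10 in Kera-high cells. They were the genes Chac1 (2.08), Slc7a11 (1.99), Psat1 (1.38), Eif4ebp1 (0.90) and Sesn2 (0.78). The neuropeptide and neurotrophin list had 3 of 6 higher, Npy, Tac1 (0.81) and Ntrk2 (0.74), with a median of 0.49, which was 0.06 with equal weights. Of 15 interferon and antigen presentation genes, 3 were higher, Ifit1 (2.03), Ifitm1 and Isg15 (1.34), and 1, Tapbp, was lower.

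The matrix glycoprotein, cytokine and metalloproteinase lists had more genes lower than higher in the heterozygote. Matrix glycoproteins and elastic fibre genes had 0 of 28 higher and 8 lower with 24 of 28 below 0 and a median of -0.44 in Kera-low cells, which was -0.31 with equal weights and -0.07 in Kera-high cells. Cytokines and chemokines had 0 of 14 higher and 6 lower with a median of -0.49, which was -0.09 with equal weights. The lower ones were Ccl2, with 171 CPM in heterozygote and 423 CPM in wild-type Kera-low cells, Cxcl10 (log2 ratio -1.27), Il6 (-1.22), Ccl11 (-1.22), Il33 (-0.94) and Cxcl1 (-0.74). Within subgroup 5, where Cxcl10 was a leading gene, it went the other way, at 874 CPM in the heterozygote and 390 CPM in the wild type. It was detected in 12 of the 60 cells of that subgroup, with 64.8% of those UMIs in 3 cells. Metalloproteinases and inhibitors had 0 of 13 higher and 4 lower, Mmp19, Mmp14, Adamts5 and Reck, with a median of -0.43, which was -0.13 with equal weights. Proteoglycans had 1 of 12 higher, Kera itself (1.12), and 3 lower, Chad (-2.21), Omd (-0.70) and Aspn (-0.68). The rule held Kera under 1000 CPM in every Kera-low cell, so its ratio is not read as a library difference. In the insulin-like growth factor list, Igfbp2 (0.69) and Dlk1 (1.13) were higher and Igf1 (-1.40), Igfbp5 (-1.16), Igf2 (-1.01) and Htra3 (-1.01) were lower. Of 9 Wnt genes 2 were higher and 2 lower, and of 17 genes of the TGF-beta and BMP pathway 2 were higher and 3 lower, with a median of -0.07. Immediate early genes were lower in the heterozygote in both classes, with 4 of 31 past 1.5-fold and a median of -0.26 in Kera-low cells, and 4 of 30 and -0.39 in Kera-high cells.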

How the data were processed

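Droplet 3′ UMI counts per gene and barcode were deposited by the authors as 1 matrix per library, made with Cell Ranger 2.1.1 against mm10, per the submitters' processing notes. The values are whole-number counts of UMIs, not normalised. No barcode was removed here, and doublets were left in the main values (removal of 0.8% per 1000 barcodes by Scrublet score was an alternative). Kera-low cells, their limits and the gene lists were chosen with earlier results of these data known.

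UMIs were summed per library and class and divided by the class total to give CPM. Ratios are log2 with 0.5 added to each count. Intervals are exact (Poisson for levels, conditional binomial for ratios, Clopper-Pearson for shares, 95%) and cover counting error only, since the libraries were the only replicates. Genes were counted where their mean over the groups compared reached 20 CPM. A gene was counted as higher or lower at 2-fold in both libraries between classes and at 1.5-fold between libraries. Named genes averaged at least 50 CPM and were the 15 furthest from 0 each way between classes, by the ratio of the library nearer 0, and the 12 furthest each way between libraries, by the interval bound nearer 0. Named beside them were the rule genes, the given markers, Becn1, the 8 leading genes of each subgroup and up to 6 examples per list; the remaining proteoglycans, Angptl7, Fos, Myoc, Tnmd and genes given with a count of 5 or fewer were named after their values were seen.

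Subgroups were Leiden clusters (resolution 0.5, 2000 variable genes, 20 components, 15 neighbours). Equal weighting averaged the CPM of the subgroups with at least 10 cells in each library. Detection was compared after thinning each cell to 5000 UMIs, which left out no cell. Alternatives were TMM scaling, other limits, other CPM minimums, a common UMI minimum and removal of subgroups. Some named genes of the rule and lists are not reported here. Positions came from GENCODE M21, matched for 27645 of 27998 features, and promoters from RefSeq on GRCm38.p6. Python 3.11.15, numpy 2.4.6, scipy 1.17.1, pandas 2.3.3, scanpy 1.11.5, leidenalg 0.10.2, matplotlib 3.10.9 and edgeR 4.0.16 were used, and the interval code was tested on simulated data.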

Additional observations from a re-analysis of the deposited data

Results flagged for a closer look

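For 4 of the 24 genes named between the libraries, the library ratio in Kera-low cells had the opposite sign of that in Kera-high cells, and the difference between the classes was not tested. A2m had a log2 ratio of the heterozygote over the wild type of 2.24 in Kera-low and -0.04 in Kera-high cells. Eln had -2.42 in Kera-low and 0.15 (-0.83 to 1.23) in Kera-high cells, where 25 heterozygote and 14 wild-type UMIs were counted in all. Gsta1 had -1.71 in Kera-low and 0.98 (-0.15 to 2.39) in Kera-high cells, from 26 and 8 UMIs. Gsta2, whose counts may be shared with Gsta1, had -1.5 in Kera-low and 0.17 (-0.50 to 0.89) in Kera-high cells, from 52 and 29 UMIs. For Eln, Gsta1 and Gsta2 the Kera-high sign was thus within counting error.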

How the results depend on the processing

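No paired analysis was possible because each genotype had 1 library and the labels carry no replicate numbers. The share of Kera-low cells among stromal cells was 20.9% in the heterozygote with the Kera limit at 500 CPM, and 29.8% in the heterozygote and 29.0% in the wild type at 2000 CPM. It was 16.0% in the heterozygote with Krt12 under 1000 CPM, 116 of 726 cells, beside 107 of 476 cells in the wild type. It was 12.2% in the heterozygote at the common UMI minimum. With subgroups 1 and 2 taken out of the Kera-low cells but kept among the stromal cells, it was 11.8% in the heterozygote and 19.7% in the wild type. Between classes the genes 2-fold higher numbered 640, 160 and 89, and those lower 217, 65 and 38, at minimums of 5, 50 and 100 CPM. Those lower numbered 77 at the common UMI minimum, 182 with TMM scaling and 226 without subgroups 1 and 2. Between libraries in Kera-low cells, the genes 1.5-fold higher numbered 898, 93 and 48, and those lower 1119, 145 and 78, at minimums of 5, 50 and 100 CPM. Those higher were 413 with Krt12 under 1000 CPM, 606 at the common UMI minimum and 431 in cells with Fos of at least 1000 CPM. Those lower were 579 at the common UMI minimum and 222 with equal weights. Without subgroups 4 and 7 the class ratio of Ly6c1 was -0.57 in the wild type and that of Pi16 was -0.12 in the heterozygote. With the Dcn limit at 2500 CPM the library ratio of Krt15 was -0.77, and with equal weights that of Pi16 was 0.076. Apart from the fewer cells or genes that each limit leaves, the cause was not tested. Removal of subgroups was chosen after seeing the data. Of the named genes' ratios under the alternatives, 996 stayed inside the interval of the value reported and 262 left it between classes, against 390 and 259 between libraries. With 1 library per genotype no value has an error between animals, and the wild-type Kera-low cells, at 1343362 UMIs in all, limit the precision of genes near 20 CPM.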
